A study of Mus musculus with 45 samples.

Results

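YEJH-M5 is a mouse mammary carcinoma cell line grown out of lung, and its transcriptome was set against those of the 4 other lung lines of the same descent, YEJH-M1, YEJH-M2, YEJH-M3 and YEJH-M4. Membership followed the line names in the sample titles, which gave 3 libraries of YEJH-M5 and 12 libraries of the 4 other lines among the 45 libraries of the series. All 5 lines descend from *PyMT*-positive YEJH cells, taken from a mammary tumour of an MMTV-*PyMT* mouse on the FVB/N background, in which the mouse mammary tumour virus promoter drives polyomavirus middle T antigen in mammary epithelium. YEJH cells were transplanted into the mammary fat pad, the resulting primary tumour was resected, and cells were later recovered from micrometastases in the lung. The parental YEJH line and 5 lines from fat-pad tumours, YEJH-FP1 to YEJH-FP5, served as further points of reference. The labels give whole lung as the source of YEJH-M1, YEJH-M2, YEJH-M4 and YEJH-M5 and lung metastases as that of YEJH-M3. No drug or genetic treatment separates the lines. The 3 libraries of a line are technical repeats, so that a p-value computed over libraries measures only the spread between repeats of a culture, and YEJH-M5 is 1 line however many libraries it has.

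Lines recovered from separate metastases can differ because few cells found each outgrowth, and such founders carry along whatever genetic and epigenetic state they had. In PyMT carcinomas, the tumour cells are mostly luminal in origin, but they take up partial mesenchymal programmes, respond to Wnt ligands from the tumour and its stroma, and make sterols and fatty acids under control of the sterol regulatory element binding proteins, SREBPs. Changes in chromosome number are frequent in cultured carcinoma lines. Expression differences of these kinds are described below for YEJH-M5 without reference to their cause.

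The libraries of YEJH-M5 held between 13818879 and 16922450 reads counted on genes, and those of the 4 other lines between 9723860 and 16693903. Library names carry 2 prefixes, taken here as 2 library runs, A and B, and the labels do not say what the prefixes mark. Run A held 2 libraries of YEJH-M5 and 5 of the other lines, and run B held 1 and 7. Reads set aside for low alignment quality numbered 0 in every run B library and from 892979 to 1372504 in those of run A. YEJH-M3 replicate 2 stood apart, with 13.3% of its reads outside annotated genes against 5.52 to 7.99% in the 14 other libraries, and the count of called genes is also given without it. Genes that mark mammary carcinoma cells summed to between 5720 and 6570 CPM, the reads scaled to a common library total, in YEJH-M5 and between 5250 and 7960 in the other lines. Leukocyte markers summed to between 5.91 and 6.3 CPM in YEJH-M5 and 5.44 to 12 in the others, and most of these reads fell on *Csf1r*, *Mrc1* and *Cd68*, with 99, 99 and 70 reads in YEJH-M5, while 6 of the 15 markers, *Itgam*, *Lyz2* and *Cd3e* among them, were at 0 in all 15 libraries. Lung epithelial markers summed to between 299 and 332 CPM in YEJH-M5 and 232 to 505 in the others, nearly all of it from *Aqp5* and *Foxj1*, with 12534 and 1753 reads in YEJH-M5. Of these 11 markers, *Sftpc*, *Sftpb*, *Sftpa1*, *Scgb1a1*, *Scgb3a2* and *Nkx2-1* were at 0 in all 15 libraries.

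Of 13599 genes tested, YEJH-M5 lay outside the range of the 4 other line means in 6013 (44.2%), above it in 3028 and below it in 2985. Being the highest or lowest of the 5 lines was no peculiarity of YEJH-M5, since each line was the extreme one in between 27.3% of genes (YEJH-M4) and 51.2% (YEJH-M1). A gene was called where YEJH-M5 differed in the same direction from each of the 4 other lines and the largest of the 4 p-values, from edgeR's quasi-likelihood test with library run as a covariate, stayed below 0.05 after Benjamini-Hochberg adjustment. By this test 155 genes (1.14%) were called, 27 higher (0.199%) and 128 lower (0.941%) in YEJH-M5. In 154 of the 155 the libraries of YEJH-M5 did not overlap those of the other lines, which the calling rule makes likely. How many of all genes tested showed no overlap was not counted.

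With the line as the unit, 1 line against 4, no gene passed an adjusted p of 0.05 in edgeR's quasi-likelihood test on summed counts, for which the smallest adjusted p was 0.579. At an unadjusted p below 0.05 this test left 921 genes (6.77%), 310 higher (2.28%) and 611 lower (4.49%), and 139 of the 155 called genes were among them. The called genes were chosen from the same libraries for differing from each of the 4 lines, so this overlap is no separate support. DESeq2 on the same sums called 139 genes. A limma fit over the 15 libraries, with those of a line treated as correlated, called 162, and 91 with the repeat number as a replicate block. Technical repeats still add to the residual degrees of freedom of the limma fit, so it is not a test of 1 line against 4. The count of 155 depended on single libraries and lines: it was 79 without YEJH-M5 replicate 3, the only YEJH-M5 library of run B, 101 without YEJH-M5 replicate 2, 194 without YEJH-M3 replicate 2 and 718 without the line YEJH-M3. YEJH-M3 was the line nearest to YEJH-M5, with a root mean square log2 distance of 0.285 over 10460 genes against 0.308 to YEJH-M4, 0.363 to YEJH-M2 and 0.38 to YEJH-M1. It was also the nearest line in 78 of the 128 lower calls and 14 of the 27 higher calls. The gene closest inside the threshold was *Twf1* (adjusted p = 0.0499) and the closest outside was *Crct1* (adjusted p = 0.0504).

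**Figure D1:**
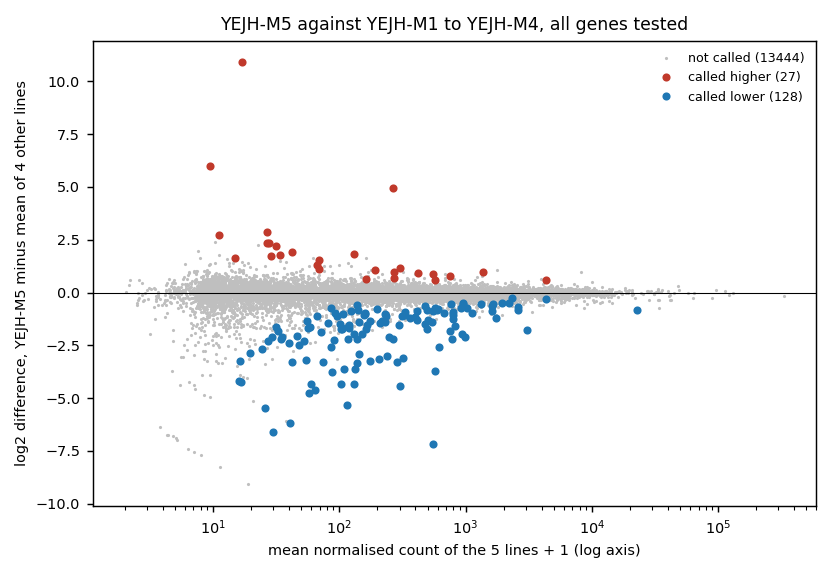
Each point is 1 of the genes tested, with the mean normalised count of the 5 lung lines plus 1 on the x axis (log scale) and the log2 difference between YEJH-M5 and the mean of the 4 other lines on the y axis. The 128 genes called lower (blue) outnumber the 27 called higher (red), and differences of genes at or near 0 in a group depend on the prior count of the fit.

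Among the genes higher in YEJH-M5, *Foxr1*, which encodes a forkhead transcription factor, was read in no other line. YEJH-M5 gave 64.9, 72.2 and 93.8 normalised counts, and all 12 libraries of the other lung lines were at 0. Reads on *Foxr1* were also at 0 in the 42 libraries of the whole series that are not YEJH-M5. Its 242 reads against 0 put its level at least 243-fold higher in YEJH-M5, by the lower limit of the 95% counting interval, and against a floor of 3 reads over the 12 libraries the ratio was 301 (adjusted p = 0.000852).

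*Loxl4*, a lysyl oxidase that crosslinks collagen and elastin, had the smallest p of any gene in the test over libraries, though not with the line as the unit (unadjusted p = 0.0113). Its normalised counts were 1056, 1142 and 1284 in YEJH-M5. The 12 other libraries ran from 0 through a median of 17.9 to 124, and none overlapped YEJH-M5. Among the other lines the means were 112 in YEJH-M2, 31.3 in YEJH-M1, 5.81 in YEJH-M3 and 0 in YEJH-M4, so that *Loxl4* separated these from one another as well. The log2 difference from the nearest line, YEJH-M2, was 3.37 ± 0.12 (SE; adjusted p = 2.14e-08). *Loxl4* overlaps *R3hcc1l* on the opposite strand, and a kit that does not mark strand cannot tell reads of such a pair apart. In the parental line it lay, like YEJH-M4, at the floor of the fit, and the fat-pad lines stood between 1.37 (YEJH-FP5) and 45.1 (YEJH-FP2) normalised counts.

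*Gata4*, a zinc-finger factor known from heart and endoderm and named here after its values were seen, showed a like pattern at a lower level. YEJH-M5 gave 41, 38.6 and 42.4 normalised counts, against a median of 0 and a highest value of 2.22 in the other 12 libraries (adjusted p = 2e-04). Summed over libraries, 129 reads in YEJH-M5 stood against 7 reads in the other lines, a ratio of 68.7 after scaling to library size with a 95% counting interval of 32.4 to 174. *Tbx15*, a T-box factor of mesenchyme, gave 280, 290 and 348 normalised counts in YEJH-M5 and between 39.8 and 147 elsewhere (log2 difference from YEJH-M3 of 1.09 ± 0.16 (SE), adjusted p = 0.0016); it too was named after its values were seen. *Tbx15* reached 157 in YEJH-FP2, and only 1.87 in the parental line.

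The remaining higher genes of the naming rule moved by smaller steps. *Epgn*, an epidermal growth factor family ligand, gave 503, 578 and 574 normalised counts in YEJH-M5 and from 160 to 347 in the 12 others (log2 difference from the nearest line 0.75 ± 0.12 (SE), adjusted p = 0.00336). Parental cells reached 539 and fat-pad lines between 386 and 469, so the level in YEJH-M5 was near that of the parental line while YEJH-M1 to YEJH-M4 lay below all of these. *Adgrg3*, an adhesion G protein-coupled receptor, gave 70, 69.2 and 81.7 against 8.65 to 44.9 (adjusted p = 0.00421), with 142 in the parental line. *Lmo7*, a scaffold of cell junctions, gave 1113, 1199 and 1105 against 570 to 841 (adjusted p = 0.00336). *Dipk2a*, named by the same rule, stood at 312, 318 and 367 against 110 to 218 (adjusted p = 0.00468). Like 154 of the 155 called genes, these 4 did not overlap between YEJH-M5 and the other libraries.

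*Mir17hg*, the host transcript of the miR-17-92 cluster, gave 363, 390 and 388 normalised counts in YEJH-M5 against 179 to 294 (adjusted p = 0.0401), and lost its call in 8 of 17 alternative settings. Only the polyadenylated host transcript was measured, and the mature miRNAs were not. *Rilpl2*, a regulator of ciliary membrane content, gave 217, 235 and 239 against 107 to 168 (adjusted p = 0.0454; call lost in 7 of 17 settings). *Slc35g1* gave 649, 631 and 738 against 284 to 484 (adjusted p = 0.0018). *Aopep*, an aminopeptidase gene that overlaps *Fancc* and 2 predicted genes, gave 783, 783 and 802 against 429 to 625 (adjusted p = 0.0178; call lost in 5 of 17 settings). *Tmem229b* (adjusted p = 0.0275; call lost in 6 of 17 settings) and *AI467606* (adjusted p = 0.00831; call lost in 4 of 16 settings) completed the 12, with log2 differences from the nearest line of 0.85 and 1.57.

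**Figure D2:**
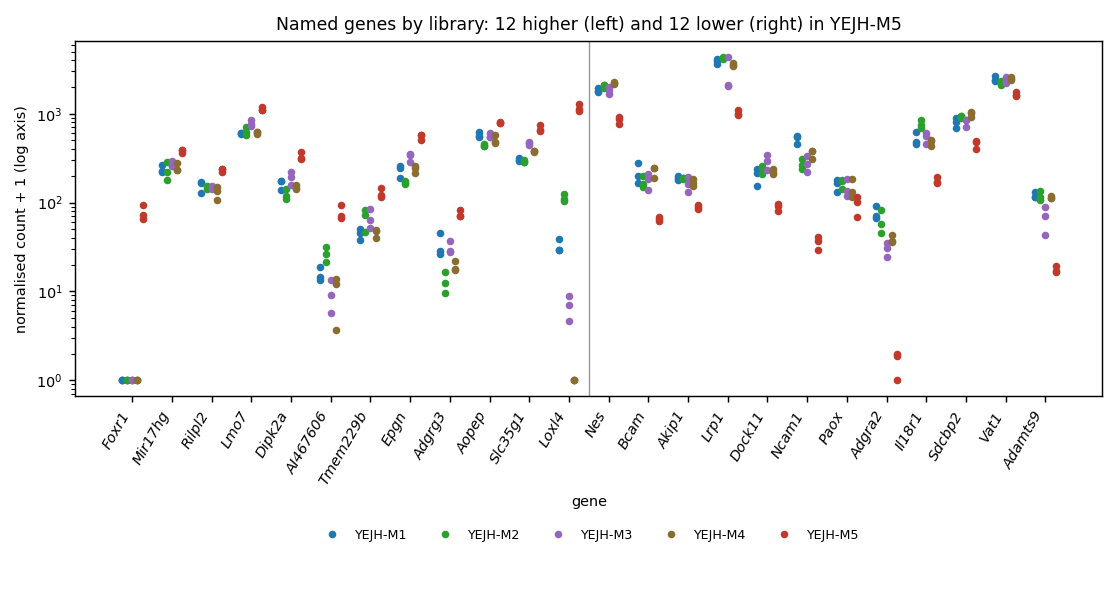
Each point is 1 library, with the normalised count plus 1 on a log axis and the 24 genes of the naming rule along the x axis, 12 higher in YEJH-M5 on the left and 12 lower on the right. Libraries of YEJH-M5 (red) do not overlap those of the 4 other lines in any of the 24 genes, most narrowly in *Paox*, and *Foxr1* is at 0 in every library of the other lines. The 24 were drawn from the called genes, of which 154 of 155 show no overlap, so this largely follows from the calling rule.

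Among the genes lower in YEJH-M5, *Ncam1*, a neural cell adhesion molecule, gave 40.1, 35.6 and 28.2 normalised counts in YEJH-M5. The 12 other libraries ran from 222 through a median of 322 to 560, and the log2 difference from the nearest line was -2.94 ± 0.19 (SE; adjusted p = 9.71e-07). YEJH-M5 lay below the parental line as well (146) and below the fat-pad lines (237 to 282). *Bcam*, a laminin-binding adhesion molecule, gave 68.3, 60.3 and 64.6 against 136 to 277 (log2 difference -1.37 ± 0.21 (SE), adjusted p = 0.0022), and the parental line, at 41.7, was lower still.

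*Lrp1*, an endocytic receptor for lipoproteins and proteases, gave 1090, 1002 and 959 normalised counts in YEJH-M5 and from 2060 to 4360 in the other 12. Within YEJH-M3, the nearest line, replicate 2 gave 4360 where replicates 1 and 3 gave 2060 and 2120, so that the log2 difference of -1.43 ± 0.21 (SE; adjusted p = 0.0018) was measured against a mean that replicate 2 raised. *Nes*, the intermediate filament nestin, spread little between the other lines, from 1660 to 2270 normalised counts. In YEJH-M5 it gave 924, 867 and 775 (log2 difference -1.10 ± 0.08 (SE), adjusted p = 4.13e-06). *Adgra2*, a receptor that serves Wnt7 signalling in brain vessels, was nearly silent in YEJH-M5, with 2 reads over the 3 libraries against 585 over the 12 others, a ratio of 0.0127 after scaling with a 95% counting interval of 0.00154 to 0.0462. In the parental line *Adgra2* stood at 1.51 normalised counts and in the fat-pad lines between 9.28 and 20.4, against means of 29.5 to 75.7 in YEJH-M1 to YEJH-M4. *Adgra2* overlaps *Brf2* on the opposite strand.

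*Il18r1*, the ligand-binding chain of the interleukin-18 receptor, gave 171, 163 and 195 in YEJH-M5 against 436 to 858 (log2 difference -1.44 ± 0.15 (SE), adjusted p = 8.92e-05). Its parental level was 53.1. *Adamts9*, a secreted metalloprotease that cleaves proteoglycans, gave 15.4, 15.8 and 18.2 against 42 to 133 (adjusted p = 0.000227), beside a parental level of 18.5. *Dock11*, an activator of the GTPase Cdc42, gave 94.7, 79.1 and 90.8 against 153 to 339 (adjusted p = 0.00193). *Sdcbp2*, *Akip1*, *Paox*, a polyamine oxidase, and *Vat1* were lower by log2 differences of -0.80, -0.87, -0.75 and -0.40 from the nearest line, with adjusted p of 0.00114, 0.00221, 0.00692 and 0.0147. *Paox* lost its call in 4 of 17 settings, and *Akip1*, *Paox* and *Vat1* each overlap a gene on the other strand.

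Of the lower genes outside the naming rule, the next 4 were chosen after their values were seen. *Ddr2*, a collagen-binding receptor tyrosine kinase, gave 6.83, 4.94 and 2.02 normalised counts in YEJH-M5. The other libraries ran from 64.6 to 1610, with 9.61 in the parental line. *Gpa33*, an epithelial cell-surface antigen, gave 20.5, 14.8 and 15.1 against 153 to 608 (log2 difference -3.45 ± 0.18 (SE), adjusted p = 8.73e-08). *Ngfr*, the low-affinity neurotrophin receptor, gave 58.9, 50.4 and 48.4 against 278 to 1280 (adjusted p = 7.55e-07). *Tenm4*, a teneurin, gave 33.3, 37.6 and 35.3 against 145 to 585 (adjusted p = 4.23e-05). None of these 4 overlapped between YEJH-M5 and the other libraries, as in 154 of the 155 called genes, and the spread among the other lines was itself large.

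Wnt pathway genes were called in both directions, 4 higher and 5 lower of 33 tested, or 27.3% beside 1.14% of all genes. The count fell to 3 without YEJH-M5 replicate 3 and to between 4 and 5 without YEJH-M5 replicate 1 or 2, YEJH-M2 replicate 2, YEJH-M3 replicate 3 or the line YEJH-M4. Among ligands, *Wnt10a*, which signals through beta-catenin, gave 2.56, 2.97 and 5.04 normalised counts in YEJH-M5 and from 19.2 to 488 in the other libraries (log2 difference -2.64 ± 0.31 (SE), adjusted p = 0.000263). *Wnt11*, a ligand of the non-canonical branch, gave 8.53, 8.9 and 9.08 against 20.1 to 111 (adjusted p = 0.0147). *Wnt5b*, also non-canonical, went the other way, with 818, 875 and 894 against 200 to 697 (adjusted p = 0.0495), and it overlaps *Fbxl14* on the opposite strand. Of the ligands, *Wnt10a* and *Wnt11* were lower and *Wnt5b* was higher. Their values did not overlap between YEJH-M5 and the other libraries, as in 154 of the 155 called genes.

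Among the Frizzled receptors, *Fzd3* gave 59.7, 69.2 and 85.7 normalised counts in YEJH-M5 against 2.59 to 29.8 (log2 difference 1.93 ± 0.23 (SE), adjusted p = 0.000238). *Fzd7* gave 411, 361 and 362 against 594 to 1340 (log2 difference -0.82 ± 0.10 (SE), adjusted p = 0.000418), and *Fzd4* was lower too (adjusted p = 0.0472). *Lgr6*, a receptor for R-spondins that marks progenitors in several epithelia, gave 1041, 930 and 888 against 1320 to 2150 (adjusted p = 0.018). The pathway inhibitors *Apcdd1* and *Nkd2* were higher. *Apcdd1* gave 126, 112 and 130 against 15.1 to 77.6 (adjusted p = 0.00622), and *Nkd2* gave 430, 518 and 401 against 130 to 345 (adjusted p = 0.0474). For *Wnt5b*, *Nkd2* and *Fzd3*, the parental line stood at 623, 1010 and 321 normalised counts and YEJH-M5 at 860, 446 and 72.9. The median log2 difference of the 33 genes was -0.18 beside 0.00 for all genes tested (-0.00364).

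Of 29 mesenchymal transition genes tested, 1 was called higher and 5 lower, 20.7% beside 1.14% of all genes, and the list's median log2 difference was -0.34. *Prrx1*, a homeobox factor of mesenchymal cells, gave 5.97, 10.9 and 7.06 normalised counts in YEJH-M5 and from 35.8 to 278 in the other libraries (log2 difference -2.60 ± 0.28 (SE), adjusted p = 0.000105). *Col5a1*, a fibrillar collagen chain, gave 18.8, 30.7 and 19.2 against 64.6 to 314 (adjusted p = 0.000781). *Tgfbi*, an extracellular protein induced by TGF-beta, gave 3.41, 7.91 and 4.04 against 14.3 to 93.4 (adjusted p = 0.0376). *Sparc*, a matrix glycoprotein, and *Tpm1*, a tropomyosin of actin filaments, were lower by log2 differences of -0.58 and -0.52 from YEJH-M3 (adjusted p = 0.0369 and 0.0345). *Cdh2*, N-cadherin, went against the other 5, at 2485, 2321 and 2009 against 736 to 1580 (adjusted p = 0.00114), so the called members did not share a direction. In the parental line *Cdh2* stood at 2580, *Sparc* at 35.7, *Col5a1* at 20 and *Prrx1* at 24.4.

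Fibroblast markers, a list of 10 genes, moved in the same direction: they summed to between 2.46 and 3.03 CPM in YEJH-M5 and between 3.52 and 6.54 in the other lines. Most of these reads fell on *Pdgfra*, the defining markers *Lum* and *Thy1* were at 0 in all 15 libraries, and *Col1a1* had 5 reads in YEJH-M5 and 49 in the 12 other libraries. Endothelial markers summed to at most 0.473 CPM in YEJH-M5 and at most 1.06 elsewhere. The part of these markers in the lower mesenchymal genes was not tested.

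**Figure D3:**
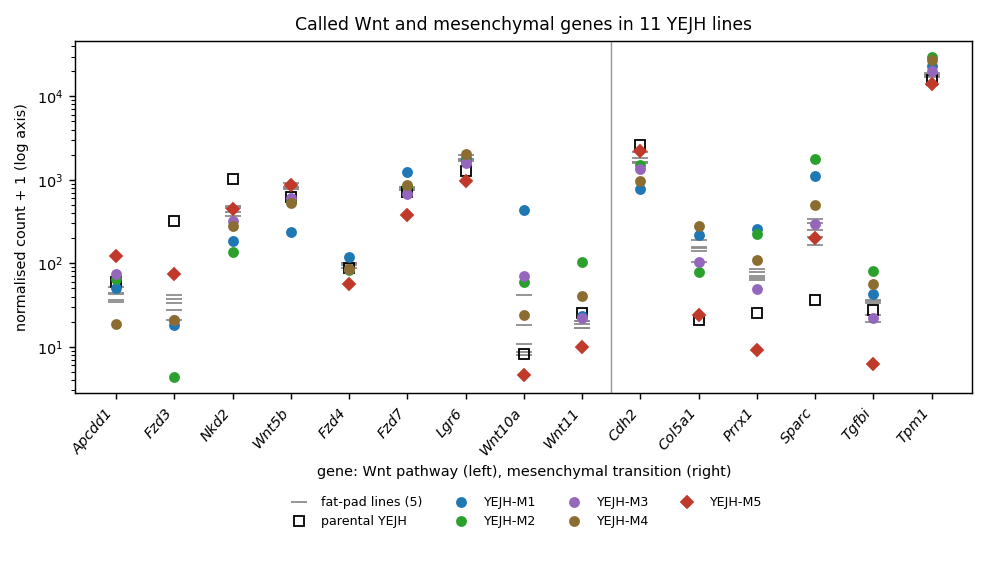
Normalised count plus 1 (log axis) of 9 called Wnt pathway genes (left) and 6 called mesenchymal transition genes (right) in 11 YEJH lines. Each symbol is the mean of a line from the fit, adjusted for library run. YEJH-M5 (red diamonds) lies outside the range of YEJH-M1 to YEJH-M4 in all 15, while parental YEJH (open squares) lies close to it in some, such as *Cdh2* and *Col5a1*, and far from it in others, such as *Sparc* and *Fzd3*.

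Genes of cholesterol and fatty acid synthesis were lower in YEJH-M5 by small and even steps. Of 37 tested, 3 were called lower and 0 higher, but 26 lay below all 4 other lines and 0 above them, beside 22% and 22.3% of all genes. In the line test 25 of the 37 had an unadjusted p below 0.05, all lower, beside 4.49% of all genes, and none passed adjustment. The median log2 difference was -0.39, and it was the same sign in each of 30 alternatives, at -0.42 to -0.35 with single libraries or lines left out. Of the 37 genes 2 lie on chromosome 15, *Sqle* and *Srebf2*, and the median of the other 35 was -0.388. *Srebf2* encodes an SREBP and lay below all 4 other lines, at 1480 normalised counts against line means of 1880 to 2300. Its part in the level of the other 35 was not tested. The 3 called were *Sqle*, the squalene epoxidase, *Hsd17b7*, a reductase of the same pathway, and *Fads2*, a fatty acid desaturase.

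*Sqle* gave 1774, 1715 and 1788 normalised counts in YEJH-M5 and from 2030 to 3310 in the other libraries (log2 difference from YEJH-M3 -0.32 ± 0.07 (SE), adjusted p = 0.0466); it lies on chromosome 15 and overlaps *Washc5* on the opposite strand. *Hsd17b7* gave 545, 591 and 555 against 676 to 941 (log2 difference -0.46 ± 0.10 (SE), adjusted p = 0.0369). *Fads2* gave 355, 361 and 395 against 475 to 778 (log2 difference -0.61 ± 0.14 (SE), adjusted p = 0.0433). All 3 were lower in every library of YEJH-M5 than in any library of the other lines. The calling rule makes this likely, and 154 of the 155 called genes showed no overlap. Members that lay below the other lines without being called included *Hmgcs1* (2100 normalised counts against line means of 2740 to 3220), which makes HMG-CoA, *Fdft1* (823 against 1070 to 1450), the squalene synthase, and *Scd1* (725 against 992 to 1590), a stearoyl-CoA desaturase. The fatty acid synthase gene *Fasn* (41400 against 35500 to 44800) lay within the range.

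Against the parental line, the list's median in YEJH-M5 was 0.265 on the log2 scale. The fat-pad lines stood between 0.219 (YEJH-FP2) and 0.50 (YEJH-FP3), and YEJH-M1, YEJH-M2, YEJH-M3 and YEJH-M4 at 0.792, 0.77, 0.654 and 0.613. YEJH-M5 therefore lay among the fat-pad lines, and the other lung lines lay above them. Of the 26 genes below the 4 other lung lines, 18 lay within the range of the 5 fat-pad lines and 8 below it.

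**Figure D4:**
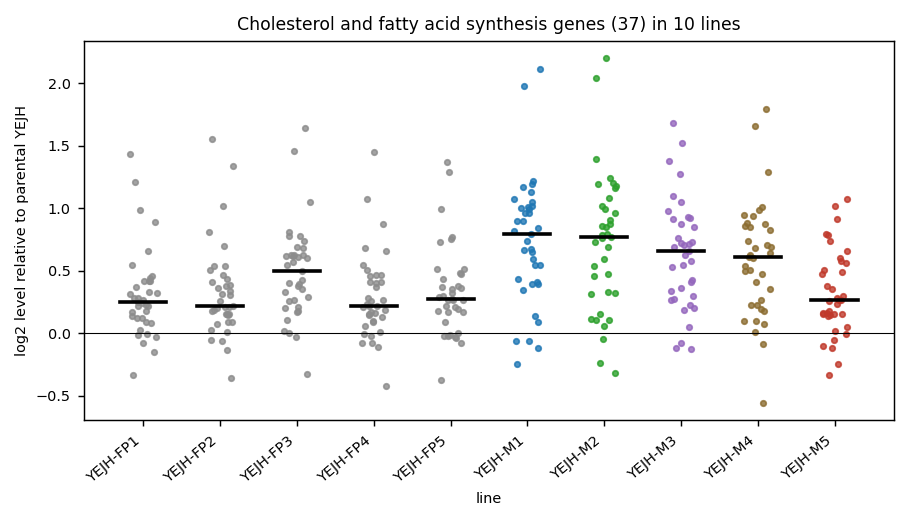
Each point is 1 of 37 cholesterol and fatty acid synthesis genes, with the log2 level relative to parental YEJH on the y axis and 10 lines on the x axis, and black bars mark the medians. The bar of YEJH-M5, at 0.265, lies among the fat-pad lines and below the 4 other lung lines, which lie between 0.613 and 0.792.

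Promoters are shown for 3 of these genes because the members moved together: *Hsd17b7* was called, and *Hmgcs1* and *Acat2*, an acetyl-CoA acetyltransferase, hold a core motif of the sterol regulatory elements that SREBPs bind. The sequences are the 250 bases before the RefSeq start on the gene's strand, located by exact match on GRCm39 at chr13:120151637-120151886 (plus strand), chr1:169796775-169797024 (minus strand) and chr17:13179613-13179862 (minus strand). Capitals mark CACCCCAC, that core motif, and CCAAT, the box bound by NF-Y, each on either strand, so that CCAAT may read ATTGG.
Hmgcs1: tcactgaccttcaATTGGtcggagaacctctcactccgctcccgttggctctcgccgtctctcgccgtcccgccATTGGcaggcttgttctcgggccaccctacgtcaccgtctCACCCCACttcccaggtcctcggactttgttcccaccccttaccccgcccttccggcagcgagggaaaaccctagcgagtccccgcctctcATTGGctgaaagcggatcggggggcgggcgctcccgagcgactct
Hsd17b7: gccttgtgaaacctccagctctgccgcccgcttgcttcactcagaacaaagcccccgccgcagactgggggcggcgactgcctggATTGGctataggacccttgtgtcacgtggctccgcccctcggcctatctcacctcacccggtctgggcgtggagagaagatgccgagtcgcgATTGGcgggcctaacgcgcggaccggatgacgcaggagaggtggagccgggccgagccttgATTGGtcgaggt
Acat2: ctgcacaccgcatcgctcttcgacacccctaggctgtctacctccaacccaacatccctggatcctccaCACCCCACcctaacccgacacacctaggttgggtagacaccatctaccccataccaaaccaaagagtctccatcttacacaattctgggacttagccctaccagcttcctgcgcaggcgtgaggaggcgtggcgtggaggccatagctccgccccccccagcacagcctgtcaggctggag

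A RefSeq promoter was at hand for 27 of the 37 genes, and CCAAT occurred in 20 of these (74.1%), beside 3471 of 9279 promoters of the genes tested (37.4%). It occurred in 14 of the 18 that lay below the 4 other lines (77.8%). Among all genes called lower, CCAAT was in 21 of 94 promoters (22.3%), so a high share did not go with lower calls in general. CACCCCAC occurred in 2 of the 27 (7.41%), beside 2.55% of all. A match in these windows is a description of the letters and not evidence of binding.

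Chromosome 15 was lower as a whole in YEJH-M5. Over 415 genes the median log2 difference from the mean of the 4 other lines was -0.268, and only 5.54% of them lay above that mean. Medians were also taken over runs of 50 neighbouring genes. All 15 runs of YEJH-M5 beyond 0.2, of 372, lay on chromosome 15, and the lowest, from *Zhx2* to *Tigd5*, reached -0.334. Such shifts were not particular to YEJH-M5, since YEJH-M1 had 24 runs beyond 0.2, the lowest at -0.397 on chromosome 4. By line, the median difference was -0.399 from YEJH-M2 (0.758-fold), -0.305 from YEJH-M1, -0.276 from YEJH-M4 and -0.0921 from YEJH-M3. Against the parental line the chromosome's median was -0.0134 in YEJH-M5, between 0.0277 and 0.151 in the fat-pad lines and 0.309, 0.371, 0.0597 and 0.274 in YEJH-M1 to YEJH-M4. YEJH-M5 thus lay close to the parental level, and the other 4 lung lines lay above it, YEJH-M3 by the least. Library by library, the median relative to the mean of the 12 was between -0.282 and -0.267 in YEJH-M5 and between -0.216 and 0.132 in the others, and the 3 lowest of these were the libraries of YEJH-M3. *Myc*, on this chromosome, had a mean of 1385 normalised counts in YEJH-M5 and between 1528 and 1858 in the other lines and was not called (adjusted p = 1).

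Of 537 genes tested on chromosome 15, 10 were called lower and 1 higher, beside 0.941% lower and 0.199% higher over all genes tested. DNA copy number was not measured. On chromosome 14, which holds *Gata4*, *Fzd3*, *Lmo7* and *Mir17hg*, 5 of 451 genes tested were called higher, beside 0.199% of all genes, and the chromosome's median was 0.0197.

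**Figure D5:**
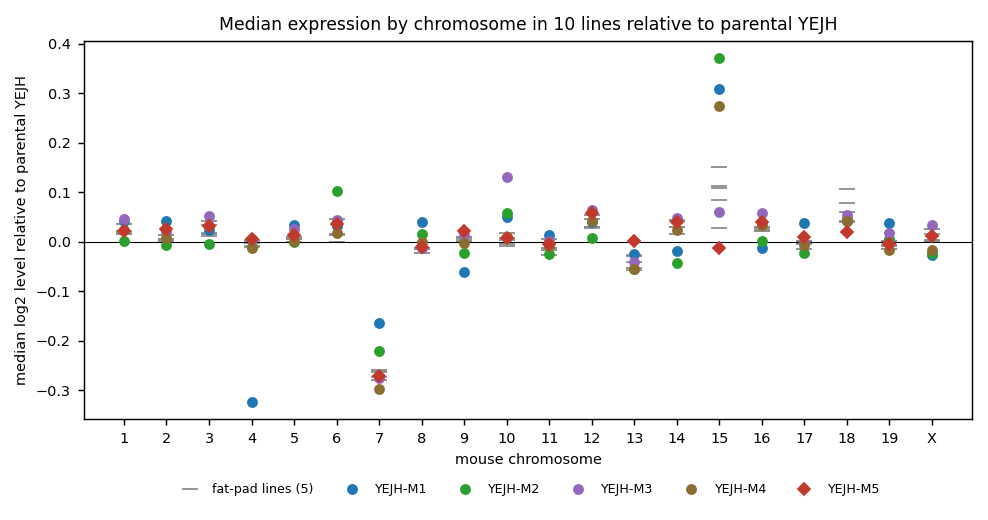
Median log2 level of expressed genes relative to parental YEJH on the y axis for each mouse chromosome on the x axis, in the 5 lung lines (coloured) and the 5 fat-pad lines (grey bars). On chromosome 15, YEJH-M5 (red diamond) lies at -0.0134 while YEJH-M1, YEJH-M2 and YEJH-M4 lie between 0.274 and 0.371; on chromosome 7 all 10 lines lie below the parental line.

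Other matrix and adhesion genes were called in small numbers. Of 36 listed basement membrane and matrix genes, *Loxl4* was higher and *Col4a6*, *Ltbp2* and *Sparc* were lower, so that 11.1% were called beside 1.14% of all genes. *Col4a6*, a type IV collagen chain of basement membranes, gave 439, 432 and 383 normalised counts in YEJH-M5 against 736 to 1090 (log2 difference -0.85 ± 0.08 (SE), adjusted p = 3.96e-05), while the parental line stood at 896 and fat-pad lines ran from 1136 to 1259. Of 16 integrins, the leukocyte-type beta chains *Itgb2* and *Itgb7* were lower (12.5% called), at means of 10.9 and 23.1 normalised counts in YEJH-M5 (adjusted p = 0.0255 and 0.00315). *Itgb7* lies on chromosome 15. *Sema3b*, a secreted semaphorin, and its family's receptor *Plxnd1* were the 2 called of 24 semaphorins, plexins and neuropilins (8.33%), both lower (adjusted p = 0.0117 and 0.00524).

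In several lists YEJH-M5 had 1 call or none. *Ehf*, an epithelial ETS factor, was the only call in a list of 39 epithelial genes, at 5.97, 6.92 and 10.1 normalised counts against 22.8 to 210 (adjusted p = 0.00133). *Cxcl12*, a chemokine, was the only call in a list of 27 chemokines, cytokines and myeloid growth factors, at 5.97, 1.98 and 1.01 against 19.5 to 190 (adjusted p = 0.00982). *Epgn* was the only call of 14 ErbB genes, and *Mest*, an imprinted gene that overlaps *Copg2*, the only one of 24 imprinted genes (34.9 ± 8.31 normalised counts (SD, n = 3 libraries) against 90.3 to 244). Glutathione and NRF2 target genes gave 1 call of 44, *Mgst2*, yet 23 of them lay below all 4 other lines beside 22% of all genes, with a median log2 difference of -0.15. TGF-beta, activin and BMP genes had 0 calls of 33 in edgeR's test and a median of -0.22. Of these genes 16 (48.5%) lay below all 4 lines and 2 above, beside 22% and 22.3% of all genes. At an unadjusted line-test p below 0.05, 1 was higher and 3 were lower, beside 2.28% and 4.49% of all genes. No member of the lists of interferon response (41 tested), class I antigen presentation (22), proliferation (44), p53 targets (35), the Notch pathway (18) or matrix proteases and inhibitors (43), which does not hold *Adamts9*, was called by edgeR, beside 1.14% of all genes. For lists of this size 0 calls is near that share. Between 0 and 4 of each list had an unadjusted line-test p below 0.05. The 4 of the p53 list were all higher, beside 2.28% of all genes. Median log2 differences ran from -0.128 to 0.0268. Yet 17 proliferation genes (38.6%) lay below all 4 other lines, beside 22% of all genes. Above them lay 14 interferon genes (34.1%) and 12 p53 targets (34.3%), beside 22.3%.

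The study concerns *Upp1*, whose product cleaves uridine to uracil, and *Upp1* was at the low end in YEJH-M5 without being called. Its libraries gave 379, 382 and 364 normalised counts, against 411 to 620 in the other 12, so the groups did not overlap. How common this was among all genes tested was not counted. The log2 difference was -0.22 ± 0.10 (SE) from the nearest line, YEJH-M3 (adjusted p = 1), and -0.46 ± 0.17 (SE) from the mean of the 4 lines in the line test (unadjusted p = 0.0384). Of 17 alternatives, only the fit without the line YEJH-M3 called it (adjusted p = 0.0315). The parental level was 373, and the fat-pad lines lay between 451 and 501. Among 31 uridine and pyrimidine genes, *Nt5c2*, a cytosolic nucleotidase, was called, lower at 697, 751 and 636 against 865 to 1340 (adjusted p = 0.0374). *Upp2*, which overlaps *Acvr1* on the opposite strand, overlapped in level between YEJH-M5 and the other lines, at a mean of 11.3 normalised counts and a range of 5.99 to 18.3.

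The fibronectin gene *Fn1* and its receptor chains were not called either. *Fn1* gave 8249, 7623 and 7769 normalised counts in YEJH-M5 and from 7900 to 27100 elsewhere, the highest value coming from YEJH-M3 replicate 2, where replicates 1 and 3 gave 12000 and 11500. *Itga5* gave 183, 181 and 181 against 222 to 543, and the 543 came from the same library (log2 difference from YEJH-M1 -0.23 ± 0.23 (SE), adjusted p = 1). *Itga5* lies on chromosome 15, whose median log2 difference in YEJH-M5 was -0.268 from the mean of the 4 other lines. *Itgb1*, at 19346, 18852 and 19296, overlapped the 16100 to 20900 of the others.

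Across the 11 YEJH lines, YEJH-M5 had the highest mean in 16 of the 27 genes called higher and the lowest in 88 of the 128 called lower, beside 1626 and 1554 of all 13599 genes, though the called genes were already the extreme of the 5 lung lines by the rule that chose them. The parental line lay beyond YEJH-M1 to YEJH-M4 on the same side as YEJH-M5 in 20 of the 27 and 93 of the 128. YEJH-FP5 did so in 16 and 86. How many of all genes tested did so was not counted. YEJH-FP5 shares its number with YEJH-M5, but whether both came from the same mouse is not stated. YEJH-FP5 lay below the mean of the 4 other fat-pad lines in 84 of the 128 genes called lower (65.6%), beside 48.6% of all genes tested, with a median log2 difference of -0.13, and it was the lowest of the 5 fat-pad lines in 63 (49.2%), beside 23.7%. Among the 27 called higher, YEJH-FP5 lay above that mean in 12 (44.4%), beside 51.4% of all genes. *Gpa33* was 41.1 in YEJH-FP5 and between 120 and 352 in YEJH-FP1 to YEJH-FP4, and *Ddr2* was 87.7 and between 186 and 541. Others of the 128 went the other way. YEJH-FP5 lay above that mean in 44 (34.4%) and was the highest fat-pad line in 18 (14.1%), beside 25.1% of all genes. In *Acta1* it stood at 253, against 120 to 201 in YEJH-FP1 to YEJH-FP4. These shares were not taken for the other fat-pad lines, so whether they are particular to YEJH-FP5 was not tested.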

How the data were processed

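RNA of 15 PyMT-positive lines was sequenced in technical triplicate, and the 15 libraries of the 5 YEJH lung lines were used here, with 18 further YEJH libraries for reference. The table that the authors deposited holds raw read counts for each gene, and the submitters' processing notes name FastQC, HISAT2, SAMtools 1.2 and HTSeq for it and the build GRCh38, although the identifiers are mouse Ensembl genes. Library preparation used polyadenylated RNA and a TruSeq kit that does not mark strand. Of 54838 identifiers, 92.6% matched the GRCm39 annotation used for names and chromosomes. Rows of unassigned reads were left out, and 0 columns lacked a sample.

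Genes passing filterByExpr were fitted with edgeR 4.0.16 (R 4.3.3), with a term for each line and for library run. The range test takes the largest p of 4 contrasts, and the line test compares counts summed per line, with the run effect of each gene as an offset. Both use quasi-likelihood and Benjamini-Hochberg adjustment at 0.05. Normalised counts are counts scaled by TMM to the mean effective library size of 14392602, and library values carry no run term, whereas line means set beside parental and fat-pad lines do. Chromosome medians and line distances use genes with a mean of at least 50 normalised counts and an offset of 5. Intervals cover counting error only. Both tests were run on simulated counts without spread between lines, which cannot show how the line test behaves under such spread. Alternatives used DESeq2 1.42.0 and limma 3.58.1, other normalisations and filters, single runs, and each library and line left out. Sequences were read with Python 3.11.15 and plots drawn with matplotlib 3.10.9.

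The lines, the gene lists and the tests were chosen with earlier results of these data known. The naming rule asked for genes past both tests, and since none passed the line test, it was filled with the 12 genes of smallest unadjusted line-test p in each direction among genes called by the range test with at least 50 normalised counts in the highest line, leaving out predicted genes and processed pseudogenes. It adds *Upp1*, *Upp2*, *Itga5*, *Itgb1* and *Fn1*. The members of gene lists that are given with values, as well as *Twf1*, *Crct1* and *Myc*, fall outside this rule and were chosen after their values were seen.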

Additional observations from a re-analysis of the deposited data

Results flagged for a closer look

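Among the 29 genes screened for a line far from the rest of the 4 other lung lines, 1 was found. *Lmo7* stood at 784 normalised counts in YEJH-M3, where YEJH-M1, YEJH-M2 and YEJH-M4 lay between 605 and 631, and YEJH-M3 was thus the line nearest to YEJH-M5 (1132). About 1 in 20 such groups is expected to show a gap of this size by chance, so that 1 of 29 is no more than that rate.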

How the results depend on the processing

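The range test called 155 genes. It called 237 with no expression filter, 81 in run A alone, 6 in run B alone, and from 79 to 718 with a library or line left out, with 76 to 87.3% of the calls lower in those. In 24 of 30 alternatives the count stayed within 1.5 times 155, and counts at an unadjusted p below 0.05 ran from 272 to 1623. The genes called higher, 27, numbered 10 without YEJH-M5 replicate 3, 46 without YEJH-M3 replicate 2, 48 without a filter and 172 without the line YEJH-M3. Run B holds 1 library of YEJH-M5, which limits it.

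The line test called 0 genes with edgeR, and 2 with no filter, 139 with DESeq2 and from 0 to 0 with a library or line left out. With limma, fitted over libraries and not over line sums, 162 were called. Repeat numbers were not treated as pairs: residuals of same-numbered libraries of different lines correlated by -0.394 to 0.561, and 14 of 15 libraries correlated best with their own number. With the repeat number as a replicate block the range test called 188 genes and the limma fit 91.

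The count of cholesterol genes below the 4 lines was 25 to 29 under 29 alternatives, their median log2 difference -0.425 to -0.346 and the chromosome 15 median of the line test, -0.275, from -0.342 to -0.226 under 30, all in the direction reported; the 2 cholesterol measures were added after the data were seen. The lowest run of chromosome 15 was -0.363 with 25 genes and -0.285 with 100. Called Wnt genes, 9, were 4 in run A, 0 in run B and 3 to 11 with a library or line left out, a measure also added after the data were seen. *Itgb1*, not called and at -0.02 from the mean of the 4 lines in the fit over libraries, reversed to 0.00358 with library totals alone and ran from -0.0715 without YEJH-M1 to 0.0088 without YEJH-M2. *Loxl4* and *Ncam1* were called in all 17 alternatives run for them, and *Upp1* was called without the line YEJH-M3 alone (adjusted p = 0.0315).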
